A study of Oryzias melastigma with 6 samples.

Results

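miR-10-5p and miR-196-5p are microRNAs (miRNAs), short RNAs that guide repression of messenger RNAs, and their genes lie inside the Hox gene clusters of vertebrates. Here they were followed in 6 small RNA libraries of marine medaka, Oryzias melastigma, a small saltwater fish, made from pooled tissue of breeding fish. The libraries were ovary, testis, female brain, male brain, female liver and male liver, with 1 library each. No genetic change or treatment was named for any of them, and neither the number of fish in a pool nor their age is given in the sources used here. Each organ was therefore represented by its female and its male library, and the gonads by ovary together with testis (n = 2 libraries for an organ). A spread between the libraries of an organ is a spread between the sexes, not between fish. Members were all listed sequences that matched a miR-10-5p or a miR-196-5p over 17 nt or more, with a 5′ shift of up to 3 nt and up to 2 mismatches. They were 10 of the 1571 exact sequences in the 6 files, 8 of them miR-10-5p and 2 of them miR-196-5p.

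In vertebrates, Hox genes encode transcription factors that set positions along the body from head to tail, and they are switched on in the order in which they stand in their clusters. miR-10 genes stand beside Hox genes of paralogue group 4, and miR-196 genes beside those of group 9, which act further towards the tail. In zebrafish, miR-10 is known to repress hoxb1a and hoxb3a, and in mouse and chick miR-196 is known to repress Hoxb8, so that both act on Hox genes that lie towards the head side of their own position. The RefSeq annotation of marine medaka, assembly ASM292280v2, names 38 hox genes, of which 4 are in group 4 and 5 in group 9. In its gene order hoxb4a stands between hoxb5a and hoxb3a, hoxb9a between hoxb13a and hoxb8a, hoxc9a next to hoxc10a and hoxa9b next to hoxa10b. The files give sequences without positions, so it was not analysed here which of these places each miRNA came from.

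The sequences below are the 22-nt sequence of each miR-10-5p letter form and of miR-196-5p, with the miR-10b sequence that starts at base 2. They are shown because the results turn on which letters and which first base were listed in which organ. They are written 5′ to 3′ as DNA letters, as in the files, and the capitals mark the seed, bases 2 to 8, through which a miRNA pairs with its targets. The letters b, c and d follow the zebrafish names of the matching sequences.
miR-10b, 22 nt: tACCCTGTagaaccgaatttgt
miR-10b, 21 nt from base 2: aCCCTGTAgaaccgaatttgt
miR-10c, 22 nt: tACCCTGTagatccggatttgt
miR-10d, 22 nt: tACCCTGTagaaccgaatgtgt
miR-196, 22 nt: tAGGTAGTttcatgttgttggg

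All 3 letter forms of miR-10-5p shared the seed ACCCTGT, and no listed sequence matched the a form. Counted from 1 at the 5′ end, miR-10c differed from miR-10b by A12T and A16G, which left 20 of 22 bases identical. miR-10d differed from miR-10b by T19G, with 21 of 22 bases identical. All of these changes lay outside the seed. miR-196-5p shared 8 of 22 bases with miR-10b and carried another seed, AGGTAGT. The miR-10b sequences that began at base 2 of the full form had the seed CCCTGTA, as counted from their own first base. The other members were longer or shorter by a base. miR-10b and miR-10c each also had a 23-nt sequence with a further g at the 3′ end, miR-10b had a 22-nt sequence from base 2 to base 23, miR-10c had a 21-nt sequence from base 2, and miR-196-5p had a 21-nt sequence without its last g.

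Relatives of both families were set beside them. miR-99-5p/miR-100-5p and miR-125-5p are relatives of miR-10, and let-7-5p has a seed that overlaps that of miR-196. The sequences below, the most abundant of each of these families, show how the seeds differ, with the capitals again marking bases 2 to 8.
miR-99-5p/miR-100-5p, 20 nt: aACCCGTAgatccgaacttg
miR-125-5p, 21 nt: tCCCTGAGaccctaacttgtg
let-7-5p, 22 nt: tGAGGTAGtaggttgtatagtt

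The deposited values were read as RPM, the reads of a sequence scaled to the library total, and every value was a whole number of reads in an implied total of 22.9 M reads (M, mega) for ovary, 25.5 M for testis, 22.7 M for female brain, 20.2 M for male brain, 18.9 M for female liver and 18.7 M for male liver. Each file stopped at a lowest listed value, which was 10.004 RPM in ovary, 10.03 RPM in testis, 8.03 RPM in female brain and 6.002 to 6.032 RPM in the other 3 libraries. A sequence that a file did not list was taken to be below that minimum, and its absence was not shown. The listing filter is not given in the sources used here, so this is an assumption. All limits drawn from the listing minima rest on it. All listed sequences took 2.08% to 2.95% of reads in the gonads, 21.65% to 23.97% in brain and 2.49% to 2.51% in liver. Those of the 95 named miRNA families took 1.53% to 2.36% of all reads in the gonads, 20.86% to 22.96% in brain and 1.84% to 1.99% in liver. miRNA reads under the minima are missing from these shares. The same share of listed miRNA reads thus gave a higher RPM in brain. Levels are given below both as deposited and as miRNA-scaled RPM, which is RPM computed on the listed miRNA reads in place of all reads. The organs carried their known markers. miR-202-5p and miR-202-3p of the gonads made up 8.57% to 10.7% of miRNA reads there and were unlisted elsewhere, the 5 brain miRNAs made up 23.4% to 25.1% in brain and under 0.1% elsewhere, and the 3 liver miRNAs made up 45.7% to 48.9% in liver and under 0.5% elsewhere.

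miR-196-5p was listed in the gonads alone. Its 22-nt sequence reached 46.9 RPM in ovary and 68.9 RPM in testis, and its 21-nt sequence 15.6 RPM in ovary and 25.5 RPM in testis. Neither was listed in any brain or liver library. The gonads therefore lay at least 5.83-fold above brain and at least 7.77-fold above liver for the 22-nt sequence, from the lower gonad library and the higher listing minimum. Summed over both sequences, miR-196-5p stood at 62.5 RPM in ovary and 94.5 RPM in testis, a mean of 78.5 ± 22.6 RPM (SD, n = 2 libraries). It ranked 34 of 59 listed families in ovary and 19 of 52 in testis.

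Tests were run with limma on log2(RPM + 1) over all families together, with Benjamini-Hochberg adjustment, after values under the highest listing minimum, 10.03 RPM, had been raised to it. miR-196-5p was higher in the gonads than in brain by 2.82 ± 0.24 on the log2 scale (SE, limma adjusted p = 0.000793), and 7.53% of the 93 families tested were called higher in that direction. The gonads exceeded liver by the same 2.82 ± 0.24 (limma adjusted p = 0.00195), where 12.9% of families were called higher. miR-196-5p entered these fits through the gonads alone, and the 4 brain and liver libraries all stood at the raised minimum. The direction was thereby fixed, and the folds are distances to that minimum. The p-values rest on the gap between ovary and testis and on the spread that limma draws from all families. The other libraries added degrees of freedom and no spread. On values scaled to miRNA reads the fold was 2.58 ± 0.44 against brain (limma adjusted p = 0.0125) and against liver (limma adjusted p = 0.0159), where 26.6% and 17.7% of 79 families were called higher. Brain and liver stood at the raised minimum there too, so the direction was fixed on that scale as well and gives no separate support.

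Single sequences gave a narrower result for miR-196-5p. In fits over all sequences, the 22-nt sequence was higher in the gonads than in brain by 2.39 ± 0.20 (limma adjusted p = 0.00117) and the 21-nt sequence by 0.93 ± 0.24 (limma adjusted p = 0.0392), with 2.59% of 1311 sequences called higher. Against liver the 22-nt sequence passed (limma adjusted p = 0.0121, with 2.97% of sequences called higher) and the 21-nt sequence did not (0.93 ± 0.24, limma adjusted p = 0.226). The call of the 22-nt sequence against liver was lost when the female or the male library of either brain or liver was left out, with limma adjusted p of 0.0918 to 0.165. Its call against brain was lost without the female brain library (limma adjusted p = 0.0804) or the male brain library (0.0950). The call of the 21-nt sequence against brain was lost without any of the 4 brain and liver libraries, with limma adjusted p of 0.103 to 0.376. On values scaled to miRNA reads the 22-nt sequence passed against brain (2.15 ± 0.42, limma adjusted p = 0.0366) and not against liver (limma adjusted p = 0.0598), and the 21-nt sequence passed against neither (0.67 ± 0.47, limma adjusted p = 0.455 and 0.458). These fits too set the gonads against libraries at the minimum. Leaving out a brain or liver library therefore kept the log2 changes at 2.39 and 0.93. It altered only the SE, the degrees of freedom and the adjustment.

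**Figure D1:**
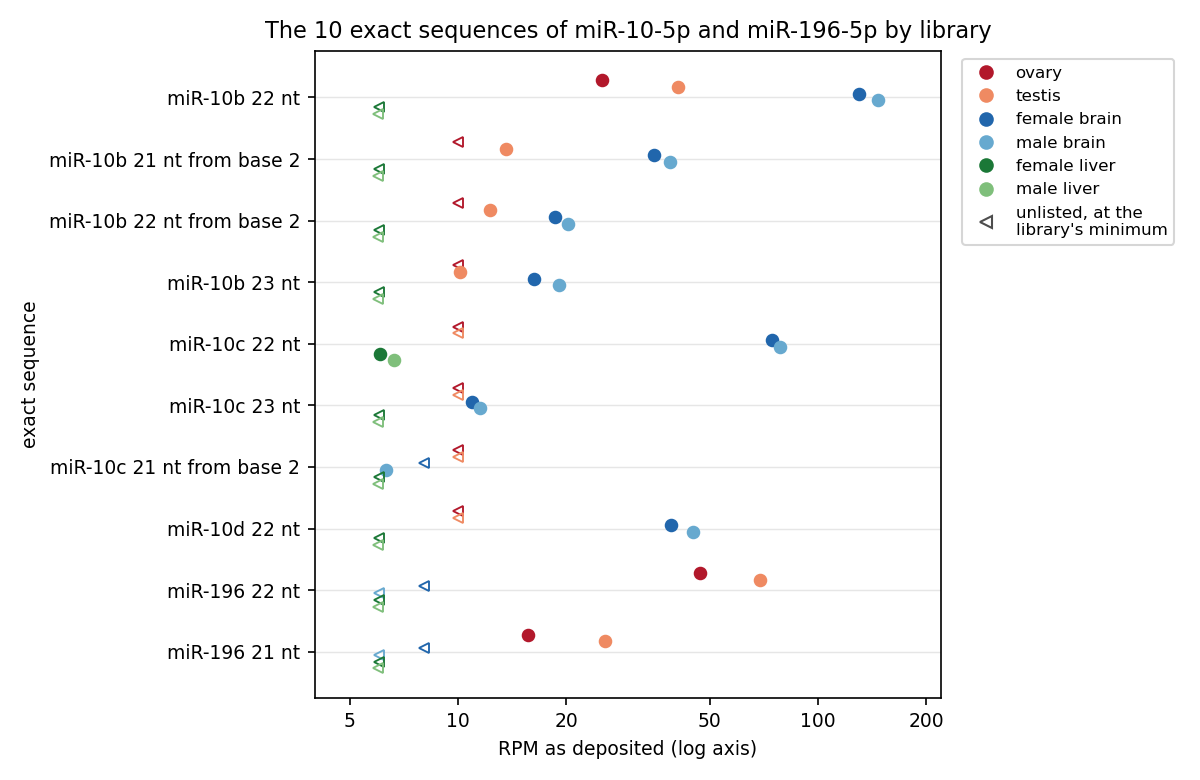
RPM of each of the 10 exact sequences (rows) in the 6 libraries on a log axis; filled circles are listed values and open triangles stand at the listing minimum of a library that did not list the sequence. miR-196 sequences have filled circles in ovary and testis alone, the miR-10c 22-nt sequence in brain and liver, and the miR-10b 22-nt sequence in gonads and brain.

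miR-10-5p was listed in all 6 libraries, and each organ listed another set of its letter forms. The gonads listed only miR-10b, brain listed miR-10b, miR-10c and miR-10d, and liver listed only miR-10c. miR-10-5p had 1 listed sequence in ovary, 4 in testis, 7 in female brain, 8 in male brain and 1 in each liver library.

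The 22-nt sequence of miR-10b was the most abundant member. It stood at 25.2 RPM in ovary and 40.9 RPM in testis, against 130.3 RPM in female brain and 146 RPM in male brain, and it was unlisted in both liver libraries. All brain values lay above all gonad values, and the mean was 4.19-fold lower in the gonads than in brain. Brain lay at least 21.6-fold, and the gonads at least 4.17-fold, above the liver minimum. In the fit over all sequences it was lower in the gonads than in brain, with a log2 change of -2.07 ± 0.25 (SE, limma adjusted p = 0.00378). It was higher in brain than in liver by 3.66 ± 0.10 (limma adjusted p = 0.000391), with liver at the minimum and without spread. It passed the minimum of that fit through brain alone, so the direction was fixed and 3.66 is a distance to that minimum. On values scaled to miRNA reads the gonads stood above brain, at 1067 miRNA-scaled RPM in ovary and 2679 in testis, against 568 in female brain and 702 in male brain. The log2 change there was 1.29 ± 0.47 (limma adjusted p = 0.172). Female brain entered that fit raised to the scaled minimum of testis, 656 miRNA-scaled RPM. The call against brain was also lost without the female brain library (limma adjusted p = 0.118) or the male brain library (0.147). The difference between gonads and liver, 1.59 ± 0.25, did not pass (limma adjusted p = 0.0597). Without the ovary library it was 1.93, from 1 gonad library and with no spread within gonads or liver to test it.

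The 22-nt sequence of miR-10c had the other pattern. It was unlisted in ovary and testis, reached 74.3 RPM in female brain and 78.2 RPM in male brain, and was the sole miR-10-5p sequence of liver, at 6.09 RPM in the female and 6.64 RPM in the male library. These liver values were 115 and 124 reads, just above the lowest listed values of 114 and 112 reads. The brain mean was 12.0-fold above the liver mean and brain lay at least 7.42-fold above the gonad minimum. It was above the common minimum in brain alone, so that the fits could give no other direction, and the log2 changes of -2.81 for gonads against brain and 2.81 for brain against liver are distances to that minimum. Their p-values rest on the gap between both brain libraries and on the spread that limma draws from all sequences, and are not given. In miRNA-scaled RPM, brain and liver were near each other, at 324 (95% Wilson interval 309 to 340) in female brain and 375 (357 to 394) in male brain, against 331 (276 to 398) in female liver and 334 (280 to 398) in male liver. The gonad minima on that scale, 424 in ovary and 656 in testis, were above all of these values, so that miR-10c at the level of brain or liver was not detectable in the gonads on that scale.

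The ratio of miR-10c to miR-10b within a library does not depend on the scaling. For the 22-nt sequences, c over b was at most 0.398 in ovary and at most 0.245 in testis, 0.570 (exact 95% interval 0.537 to 0.606) in female brain and 0.534 (0.502 to 0.568) in male brain, and at least 1.01 in female liver and at least 1.11 in male liver. The order of the organs was thus the same in both sexes, with the gonads below brain and brain below liver. At the c over b ratio of brain, the miR-10c values of liver would go with 10.7 RPM of miR-10b in the female and 12.4 RPM in the male library, above the listing minima of 6.032 and 6.002 RPM, and none was listed. The intervals cover counting error only, since the reads carried no molecular identifiers, and each ratio is from 1 library.

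miR-10d was listed in brain alone, by its 22-nt sequence, at 39.0 RPM in the female and 45.0 RPM in the male library. Brain lay at least 3.89-fold above the gonad minimum and at least 6.46-fold above the liver minimum. The log2 changes, -1.96 for gonads against brain and 1.96 for brain against liver, are again distances to the common minimum in a direction that the listing fixed. In miRNA-scaled RPM it stood at 170 in female and 216 in male brain, below the minima of gonads (424 and 656) and liver (329 and 302) on that scale, so no difference between organs was detectable there. Of all miR-10-5p sequences, miR-10b made up 61.7% of reads in female and 61.4% in male brain, miR-10c 26.3% in both, and miR-10d 12.0% in female and 12.3% in male brain.

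Over all members, 6 of the 7 sequences that could be tested were higher in brain than in liver, all of them miR-10-5p, where 54.1% of 1124 sequences were called higher. The same 6 were lower in the gonads than in brain, out of 9 tested, where 48.0% of 1311 sequences were called lower. The shares of all sequences called were thus large in both comparisons, and the counts are no support of their own. For brain against liver, these sequences had passed the minimum through brain alone. For gonads against brain, that held for the miR-10c and miR-10d 22-nt sequences, while the 4 miR-10b sequences also passed it in testis. The miR-10c 23-nt sequence, at 10.9 RPM in female and 11.5 RPM in male brain, did not pass (limma adjusted p = 0.0851 for gonads against brain and 0.203 for brain against liver). The miR-10c 21-nt sequence from base 2, at 6.32 RPM in male brain, lay under the common minimum and was not tested. On values scaled to miRNA reads, few miR-10-5p sequences could be tested, because the scaled minimum of testis, 656 miRNA-scaled RPM, lay above most brain values. For brain against liver 1 sequence was tested, the miR-10b 22-nt sequence (0.05 ± 0.07, limma adjusted p = 0.592), and for gonads against brain the 4 miR-10b sequences were, of which none passed. The brain against liver fit used the testis minimum though it held no testis library, so its small fold does not show a like level. The miR-10b 22-nt sequence stood at 568 in female and 702 in male brain. Both lay above the liver minima on that scale, 329 in female and 302 in male liver. Without either liver library the miR-10b 22-nt sequence from base 2 and the 23-nt sequence lost their calls in brain against liver, with limma adjusted p of 0.0561 to 0.111. Without either brain library both miR-10b sequences from base 2 lost theirs in gonads against brain, with limma adjusted p of 0.0878 to 0.166.

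As a family, miR-10-5p summed to 25.2 RPM in ovary and 77.0 RPM in testis, 325 RPM in female brain and 366 RPM in male brain, and 6.09 RPM in female liver and 6.64 RPM in male liver. On the deposited scale the order was male brain, female brain, testis, ovary, male liver and female liver, and only the 2 liver libraries were not told apart by counting error. Brain exceeded liver by 4.97 ± 0.12 on the log2 scale (limma adjusted p = 0.000196, 74.2% of 89 families called higher), and by 1.23 ± 0.16 on values scaled to miRNA reads (limma adjusted p = 0.00771, 35.2% of 71 families called higher). Both liver libraries were under the minimum, so that the direction was fixed and these folds are distances to it. The p-values rest on the gap between the brain libraries and on the spread that limma draws from all families. The gonads were lower than brain by a log2 change of -2.94 ± 0.56 as deposited (limma adjusted p = 0.0101, 65.6% of 93 families called lower), and stood at 0.56 ± 0.80 above brain when scaled to miRNA reads (limma adjusted p = 0.640). That call was also lost without the female brain library (limma adjusted p = 0.0980) or the male brain library (0.105). Gonads and liver differed by 2.03 ± 0.56 (limma adjusted p = 0.0822), which did not pass. Without the ovary library that contrast was 2.82, and without the testis library 1.25. Each of these fits held 1 gonad library, with both liver libraries raised to the minimum. Both values are distances to that minimum, with no spread within gonads or liver to test them.

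The scale moved the whole table and not miR-10-5p alone. The median log2 change over all families was 2.48 for brain against liver and -2.48 for gonads against brain as deposited, and 0.01 and 0 when scaled to miRNA reads. miR-10-5p thus lay above the median family in brain against liver by more than 1 log2 unit on both scales. In gonads against brain it lay within 1 SE of the median, at -2.94 ± 0.56 as deposited and 0.56 ± 0.80 when scaled. Families at the raised minimum enter these medians. The scaled brain against liver fit also used the testis minimum of 656 miRNA-scaled RPM, which lay above miR-10-5p in both liver libraries. In miRNA-scaled RPM, miR-10-5p stood at 1067 in ovary and 5037 in testis, 1413 in female and 1753 in male brain, and 331 in female and 334 in male liver, with testis in place of brain as the highest library. miR-196-5p stood at 2651 in ovary and 6183 in testis on that scale.

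**Figure D2:**
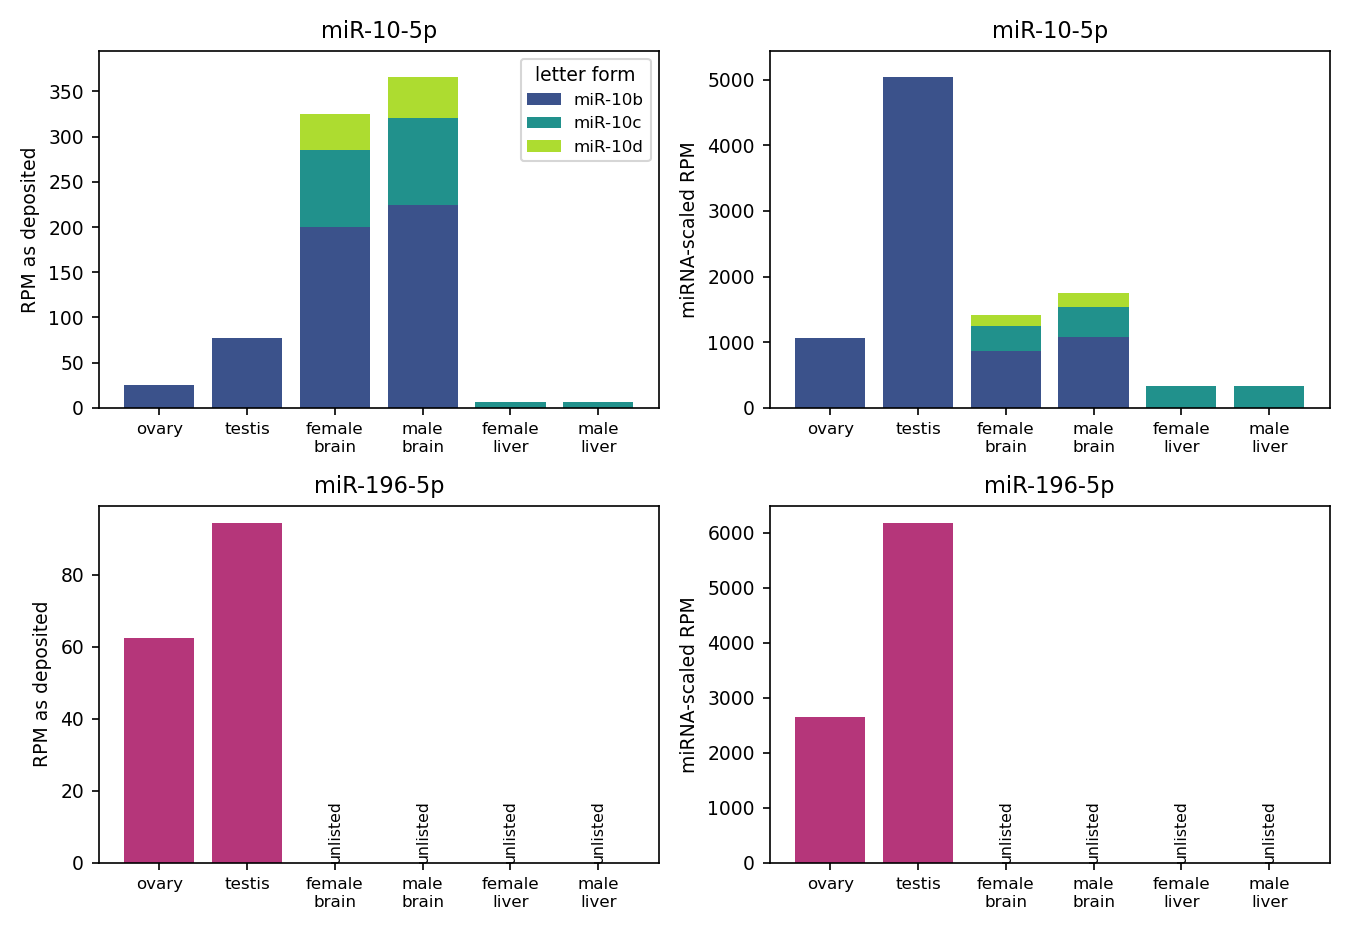
Summed level of miR-10-5p, stacked by letter form, and of miR-196-5p in the 6 libraries, as deposited RPM (left) and as miRNA-scaled RPM (right); each bar is 1 library. miR-10-5p is highest in male brain at 366 RPM as deposited and highest in testis at 5037 miRNA-scaled RPM, and only the gonads have a bar for miR-196-5p.

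**Figure D3:**
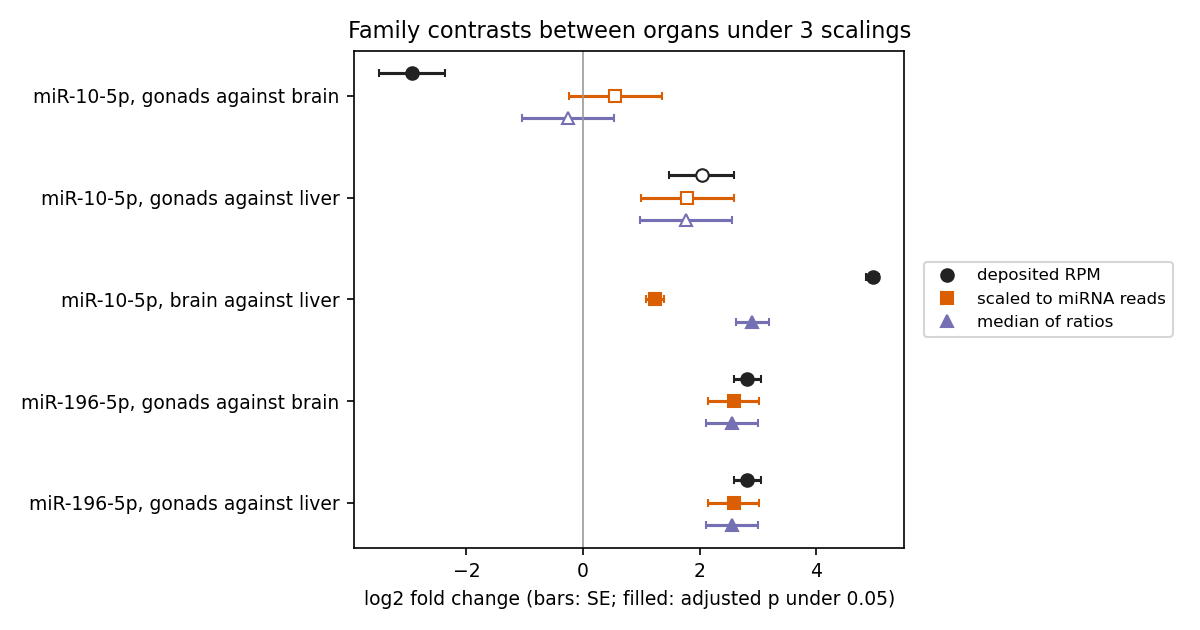
Log2 fold change of miR-10-5p and miR-196-5p between organs from limma under 3 scalings, with the SE as a bar and filled symbols where the adjusted p was under 0.05. The gonads against brain contrast of miR-10-5p is -2.94 as deposited, -0.26 with median-of-ratios scaling and 0.56 when scaled to miRNA reads. The miR-196-5p contrasts stay between 2.56 and 2.82, with brain and liver at the raised minimum in each.

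Within the gonads both families were higher in testis. The ovary over testis ratio was 0.327 (exact 95% interval 0.297 to 0.359) for the miR-10-5p sum and 0.662 (0.619 to 0.707) for miR-196-5p. Among the 42 families that reached 50 RPM in ovary or testis and were listed in both, the median ratio was 1.57 and 9 lay below 1. As deposited, both members thus ran opposite to most families. miR-10-5p had the second and miR-196-5p the fourth lowest ratio, after miR-7-5p at 0.0336. miR-223-3p, at 57.9 RPM in ovary and unlisted in testis, was the sole family past 50 RPM left out for want of a value. The miR-10-5p ratio rests in part on the listing minimum, since 3 of the 4 testis sequences were unlisted in ovary. For the 22-nt sequence of miR-10b alone the ratio was 0.615 (0.554 to 0.681), and with the 3 unlisted sequences set to the ovary minimum the sum would give at most 0.717. At that limit miR-10-5p would lie above miR-29-3p (0.448), miR-196-5p and miR-217-5p (0.697), and would not hold the second lowest place. Scaling to miRNA reads lowered the ratios to 0.212 for miR-10-5p and 0.429 for miR-196-5p. It lowers the ratios of all families by the same factor, so their order stays and the median of 1.57 falls too. Listed miRNA families summed to 23585 RPM in ovary and 15277 RPM in testis, a gap close to that median. How many families lay below 1 on that scale was not counted. The 22-nt and 21-nt sequences of miR-196-5p gave ratios of 0.680 (0.630 to 0.734) and 0.613 (0.537 to 0.698), and the 22-nt sequence made up 75.0% of its reads in ovary and 73.0% in testis.

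In brain the female over male ratio of miR-10-5p was 0.888 (exact 95% interval 0.859 to 0.917), the fifth lowest of 69 families, whose median was 1.19 with 11 below 1. As sums of listed sequences the letter forms had like ratios. They were 0.892 (0.856 to 0.929) for miR-10b, 0.888 (0.834 to 0.947) for miR-10c and 0.865 (0.788 to 0.950) for miR-10d. The miR-10c and miR-10-5p sums of male brain held a further miR-10c sequence, 21 nt from base 2, at 6.32 RPM. Female brain, with a listing minimum of 8.03 RPM, could not have listed it at that level. Like for like, the miR-10c 22-nt and 23-nt sequences each gave 0.951, with intervals that held 1. In liver the ratio of miR-10-5p was 0.916 (0.704 to 1.19), an interval that held 1. None of these ratios has a replicate, so the spread between fish was not tested.

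The balance between both families differed between gonads and brain. Like for like, the 22-nt sequence of miR-196-5p over that of miR-10b was 1.86 (exact 95% interval 1.68 to 2.06) in ovary and 1.68 (1.56 to 1.82) in testis, intervals that overlapped. The sums of listed sequences gave 2.48 in ovary and 1.23 in testis, but with the 3 unlisted miR-10-5p sequences set to the ovary minimum the ovary ratio could be as low as 1.13, so that the sums do not tell ovary and testis apart. With miR-196-5p at the listing minimum the ratio of sums was at most 0.0248 in female and 0.0165 in male brain. In liver, where miR-10-5p itself lay near the minimum, the limits of 0.991 in female and 0.903 in male liver hold little information.

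Part of miR-10b began 1 base late, which shifts the seed. The 21-nt sequence from base 2 was unlisted in ovary, reached 13.6 RPM in testis, 35.1 RPM in female brain and 38.9 RPM in male brain, and was unlisted in liver. The 22-nt sequence from base 2 reached 12.3 RPM in testis, 18.5 RPM in female brain and 20.2 RPM in male brain. Sequences from base 2 made up 33.7% of the miR-10b reads in testis (95% Wilson interval 31.6% to 35.8%), 26.8% in female brain (25.5% to 28.1%) and 26.3% in male brain (25.1% to 27.6%). Sequences that ended at base 23 made up 29.1% (27.1% to 31.2%) in testis, 17.4% (16.3% to 18.5%) in female brain and 17.5% (16.4% to 18.6%) in male brain. Both end variants thus took a larger share in testis than in brain, beyond counting error and in 1 testis library.

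In brain the late start was less frequent in miR-10c than in miR-10b. Like for like, the 21-nt sequence from base 2 stood to the 22-nt sequence from base 1 as 0.270 (exact 95% interval 0.249 to 0.292) in female brain and 0.266 (0.245 to 0.288) in male brain for miR-10b. For miR-10c this ratio was at most 0.108 in female brain and 0.0809 (0.0670 to 0.0969) in male brain. For miR-10d it was at most 0.206 in female and 0.134 in male brain. The limits come from the listing minimum, and in both brain libraries those of miR-10c and miR-10d lay below the miR-10b ratio. For miR-10b in ovary the limit of 0.398 lay above the testis ratio of 0.333 (0.294 to 0.376), so a like share in ovary would not have been listed. miR-196-5p had no listed sequence from base 2, which limits that ratio to at most 0.213 in ovary and 0.145 in testis.

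Over the whole miR-10-5p family, 16.5% of reads in female brain and 17.9% in male brain began at base 2. That was the third highest share of 69 families in female brain and the second of 65 in male brain, where the medians were 0.768% and 1.07%. miR-130-3p/miR-301-3p lay higher in both libraries, at 22.5% in female and 23.8% in male brain, and miR-217-5p in female brain, at 18.1%. Among the relatives the shares in female brain were 8.16% for miR-125-5p, 1.67% for let-7-5p and 0.996% for miR-99-5p/miR-100-5p, and in male brain 7.94% for miR-125-5p and 1.45% for let-7-5p, with no such sequence of miR-99-5p/miR-100-5p listed. A share can only count listed sequences, so that it is a lower value for families of low abundance.

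**Figure D4:**
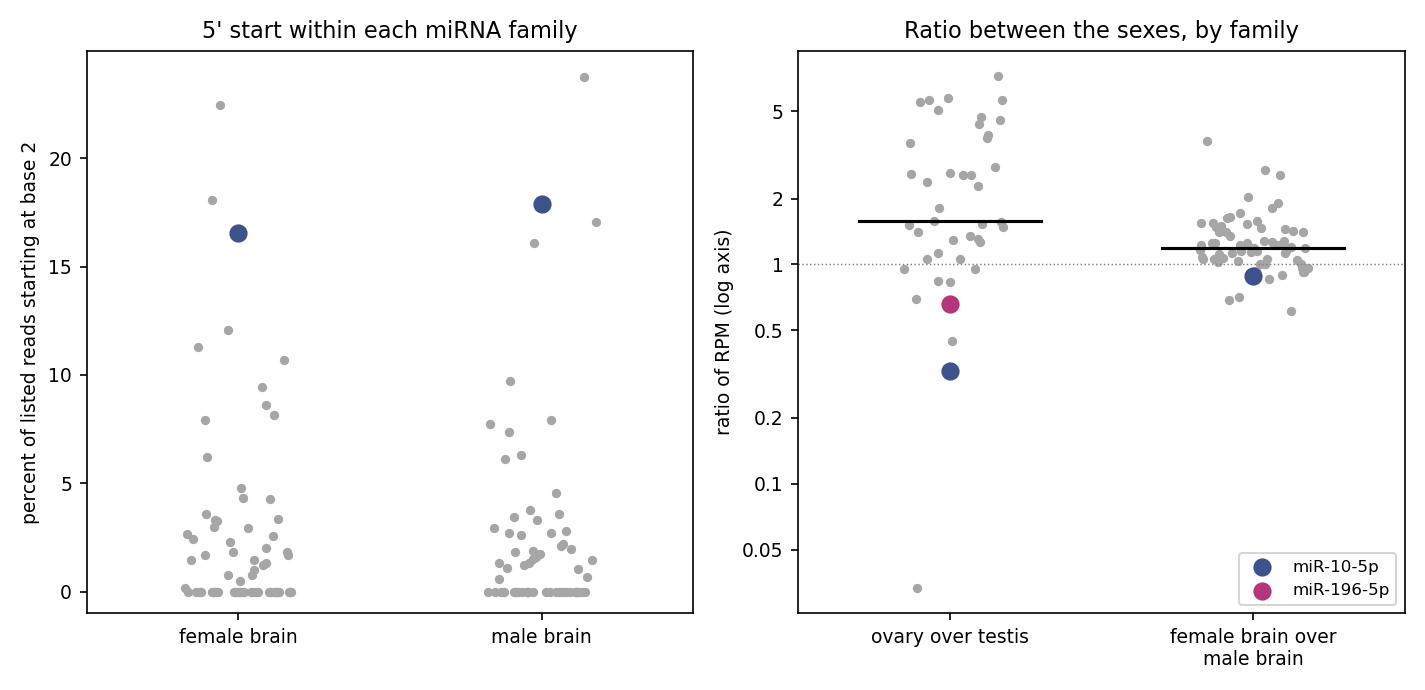
Left, percent of the listed reads of each miRNA family that start at base 2 in the brain libraries; right, ratio of RPM between the sexes for each family on a log axis, with the median as a line, and 1 point for each family. miR-10-5p lies near the top on the left (16.5% and 17.9%) and below the median on the right (0.327 in gonads, 0.888 in brain), and miR-196-5p lies below the gonad median at 0.662.

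The relatives differed from both families in level and spread. miR-99-5p/miR-100-5p stood at 133 RPM in ovary and 84.4 RPM in testis, 2017 RPM in female and 1643 RPM in male brain, and 22.4 RPM in female and 86.9 RPM in male liver. miR-125-5p stood at 117 RPM in ovary and 76.6 RPM in testis, 5600.4 RPM in female and 4728 RPM in male brain, and 6.88 RPM in female and 29.5 RPM in male liver. let-7-5p was the most abundant, with 6870.4 RPM in ovary and 4385 RPM in testis, 37500 RPM in female and 30529 RPM in male brain, and 1856 RPM in female and 1571 RPM in male liver. As deposited, all 3 relatives were thus higher in ovary than in testis and higher in female than in male brain. This was the opposite of miR-10-5p in both on that scale. Their ovary over testis ratios of 1.53 to 1.57 and female over male brain ratios of 1.18 to 1.23 lay near the family medians of 1.57 and 1.19. Listed miRNA families also summed to more in ovary (23585 RPM) than in testis (15277 RPM). That gap is close to the ovary over testis ratios of the 3 relatives. On values scaled to miRNA reads little of their difference between ovary and testis would thus be left. Their scaled ratios were not computed. All 3 were lower in the gonads than in brain as deposited (limma adjusted p = 0.00787, 0.00148 and 0.00198), where 65.6% of 93 families were called lower. The call of miR-99-5p/miR-100-5p was lost without the female brain library (log2 change -3.94) or the male brain library (-4.24). Scaled to miRNA reads, miR-125-5p stayed lower at -2.23 ± 0.42 (limma adjusted p = 0.0160) and let-7-5p turned higher at 0.90 ± 0.16 (limma adjusted p = 0.0135). miR-99-5p/miR-100-5p gave -0.57 ± 0.66 (limma adjusted p = 0.533). On that scale 21 of 79 families were called lower and 21 of 79 higher. No listed sequence carried the start of miR-10-3p or miR-196-3p, the opposite arms.

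The families most like each member were found by Pearson correlation over the 6 libraries on the log2 scale of the fits, among 80 families, as a description. They share libraries, depth and the common minimum. For miR-10-5p they were miR-7-5p (r = 0.987), miR-217-5p (0.981) and miR-204-5p (0.962). miR-7-5p stood at 20.2 RPM in ovary and 601 RPM in testis, a wider gap than that of miR-10-5p. For miR-196-5p they were miR-202-5p (r = 0.980), miR-214-3p (0.954) and miR-145-5p (0.902), which all reached more in the gonads than in the other organs.

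Markers of other cell types moved with some of these results. The smooth muscle miRNAs miR-143-3p and miR-145-5p, both listed in the gonads, summed to 1568 RPM in ovary and 1798 RPM in testis, 377 RPM in female and 386 RPM in male brain, and 44.1 RPM in female and 92.4 RPM in male liver, and so were higher in the organs that listed miR-196-5p. Of the 3 skeletal and heart muscle miRNAs, 2 were listed in ovary, 1 in testis, 3 in female and 2 in male brain and none in liver. Their sums were 113 RPM in ovary, 79.1 RPM in testis, 354 RPM in female brain and 205 RPM in male brain. As deposited, the order of organs was like that of miR-10-5p, while the sexes ran the other way. As a share of miRNA reads the gonads stood above brain, at 0.479% in ovary and 0.518% in testis against 0.154% in female and 0.0982% in male brain. The red blood cell miRNAs miR-144-3p and miR-451-5p summed to 145 RPM in ovary, 32.9 RPM in testis, 1767 RPM in female brain, 964 RPM in male brain and 309 to 319 RPM in liver. Of the 3 leukocyte miRNAs, miR-150-5p was unlisted in all libraries, and the sums were 119 RPM in ovary, 45.4 RPM in testis, 143 RPM in female brain, 136 RPM in male brain, 12.3 RPM in female liver and 68.3 RPM in male liver. The part of these cells in the miR-10-5p and miR-196-5p results was not tested, and in pooled organs fewer cells of a type and less RNA per cell cannot be told apart.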

How the data were processed

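Per the labels' protocols, total RNA of pooled tissue was DNase-treated, small RNA was gel-purified, and PCR followed adapter ligation. CASAVA 1.7.0 is named in the submitters' processing notes. For the aligner, build, trimming and listing filter, nothing is given in the sources used here. Every deposited file gives exact sequences of 20 to 23 nt with an expression value, taken as RPM scaled by the authors, from the values: all were whole reads of a fixed total within a tolerance of 0.02 reads. These totals served for depth and intervals alone.

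Families were found from 109 start motifs of 8 to 11 bases and the deposited sequences that carry them, and 1064 of 1571 sequences fell into 95 families, with 0 tied. Paralogues of like sequence were not told apart, and miRNAs over 23 nt were not analysed here. limma 3.58.1 (R 4.3.3) was run two-sided on log2(RPM + 1), on 4 libraries for brain against liver and on all 6 for the gonads. A feature above 10.03 RPM in at least 1 library was tested, and one with no residual spread got no p. An organ whose libraries were both raised to that value adds no spread. The p-values measure the spread between the sexes' libraries, which limma moderates by the spread of all features tested. Scaled fits raised values to the highest scaled minimum, 28.2 for miRNA reads and, on all 6 libraries, 23.5 for median of ratios (39 families). For brain against liver the median-of-ratios factors and minimum were computed on its 4 libraries. The fits were tested on simulated data with spread in every library and no listing minimum, which does not cover organs raised to a minimum. Intervals (95%) cover counting error only. Figures used matplotlib 3.10.9 and Python 3.11.15.

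Named were all members, a related list, and for each member the 3 most alike families with at least 50 RPM. Members and lists were chosen with earlier results of these data known. Alternatives were other scalings, pseudocounts, floors, filters and matching rules, each library left out, and sex as a block.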

Additional observations from a re-analysis of the deposited data

How the results depend on the processing

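The miR-10-5p contrast between gonads and brain (-2.94 as deposited) depended on the scaling: it turned to 0.56 with values scaled to miRNA reads and was no longer called at -0.26 with median-of-ratios scaling. On values scaled to miRNA reads the miR-10b 22-nt sequence turned with it, to 1.29, with female brain raised to the scaled minimum. The values of 0.21 (21 nt from base 2), 0.14 (22 nt from base 2) and 0.0054 (23 nt) are set by the scaled minimum: brain lay under it, so no negative sign was possible. On that scale the number of member sequences called was 0 higher in brain than in liver, against 6 as deposited, 0 lower in gonads than in brain, against 6, 1 higher in gonads than in brain, against 2, and 0 higher in gonads than in liver, against 1. For brain against liver only 1 member sequence lay above the scaled minimum and was tested, and for the other comparisons 6, so the losses from 6 to 0 were largely fixed by that minimum. A pseudocount of 10 also left 1 higher in gonads than in brain. miR-10-5p in gonads against liver, not called at 2.03, was called with unlisted values as 0 (2.62, limma adjusted p = 0.0471) and with no shift of the 5′ end (1.74, limma adjusted p = 0.0357).

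With each library left out in turn, miR-10-5p in gonads against brain ranged from -3.72 to -2.15 and lost its call without either brain library. Gonads against liver ranged from 1.25 (without testis) to 2.82 (without ovary). Each of these is a distance to the minimum from 1 gonad library, which has no spread of its own. The number of sequences higher in gonads ranged from 0 to 1 against brain and was 0 against liver in each such fit that gave a count. The brain or liver library left out in those counts stood at the minimum for miR-196-5p, whose log2 changes stayed the same. Where only 1 library stood above the minimum, no spread was left and no test was made: this held for miR-10-5p in brain against liver without a brain library (4.88 and 5.06) and miR-196-5p without ovary (3.11) or testis (2.53).

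The sex ratios kept their direction under both scalings where their interval lay off 1. Scaling to miRNA reads, and then median-of-ratios scaling, gave 0.806 and 0.670 for miR-10-5p in brain, 0.212 and 0.206 for miR-10-5p in gonads, and 0.429 and 0.417 for miR-196-5p. The liver ratio of miR-10-5p, 0.916, was 1.83 with median-of-ratios scaling.

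Sex as a replicate block, which pairs the libraries by the sex label and not by fish, changed no call of either family: miR-10-5p kept 4.97 (limma adjusted p = 0.00309), -2.94 (0.0152) and 2.03 (0.0896), and miR-196-5p kept 2.82 (0.00289 against brain, 0.00758 against liver). Each organ had 1 library of each sex, so the block could not alter the log2 changes, only the SE and the adjusted p. The unchanged log2 changes are therefore no support of their own. The planned count test, edgeR, was not run, since the files give scaled values. miR-196-5p has no value with a mean of at least 50 RPM, and the liver shares have none above the common minimum. The listing minima, 112 to 256 reads, limit all statements on unlisted sequences, and 1 pooled library per sex and organ limits all p-values.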
